A study of Homo sapiens with 4 samples.

Results

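Aldehyde dehydrogenases (ALDH) are enzymes that oxidise aldehydes to carboxylic acids, and PROM1 encodes prominin 1 (CD133), a membrane glycoprotein of cell protrusions. In ovarian cancer, ALDH activity and CD133 are used together to mark stem-like cells. The set examined here holds 10 genes, ALDH1A1, ALDH1A2, ALDH1A3, ALDH1B1, ALDH2, ALDH3A1, ALDH3A2, ALDH3B1, ALDH7A1 and PROM1, which were picked by symbol from the 23228 genes of the count tables, and all 10 are listed. They were picked with earlier results of the comparison of Liq with vehicle known. Their values in that comparison are therefore given as a description, without p-values.

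Total RNA was sequenced from ES2 cells, an established human ovarian cancer cell line, treated for 24 h with vehicle or with liquiritigenin (Liq). Liq is a plant flavanone used in the study as an agonist of estrogen receptor β (ERβ). It was given at 100 μM. There were 2 samples per group, and the cells of both groups were kept in phenol red–free medium with charcoal-treated serum. The labels do not say whether the 2 samples of a group came from separate cultures, so the spread between them may be technical, and all values are from 1 cell line.

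The ALDH1A enzymes turn retinaldehyde into retinoic acid, the ligand of the retinoic acid receptors. ALDH2 and ALDH1B1 are mitochondrial enzymes that clear acetaldehyde, ALDH3A2 and ALDH3B1 oxidise fatty aldehydes, ALDH3A1 is the abundant aldehyde dehydrogenase of the cornea, and ALDH7A1 acts in lysine breakdown. The dye reaction used to sort ALDH-positive cells does not tell these isoenzymes apart, whereas RNA-seq gives each gene its own level.

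Of the 10 genes, 5 were well expressed in ES2 cells and 5 lay near the lowest level that the libraries can show. Between 34573053 and 48933893 reads per library fell on genes, and levels are given as CPM, counts over the TMM-adjusted depth of their library. At this depth 3 counts corresponded to 0.0598 to 0.0844 CPM in a single library, and intervals and limits based on counts cover counting error only. The epithelial keratin genes KRT7 and KRT18 were expressed (252 ± 20 and 198 ± 9 CPM in vehicle; SD, n = 2), whereas EPCAM had 1 to 3 counts per library and PAX8 1.21 ± 0.03 CPM in vehicle. PAX8 and WT1, transcription factors used as markers of ovarian carcinoma, fell with Liq, with log2 fold changes of -1.34 and -0.68 (edgeR adjusted p = 0.0021371 and 0.0028491), and WT1 did not pass without vehicle replicate 2. KRT7 was higher with Liq by 0.51 on the log2 scale (358 ± 29 CPM, edgeR adjusted p = 1.0814e-05), under the 1.5-fold threshold. KRT18 was lower with Liq, with a log2 fold change of -0.24 (167 ± 2 CPM, edgeR adjusted p = 0.013222), also under that threshold. KRT8 was at 23.8 ± 0.7 CPM in vehicle and 26.1 ± 1.5 CPM with Liq (edgeR adjusted p = 0.31813). Of 8 marker genes of immune, endothelial, erythroid and liver cells, CD3E was at 0 in all libraries. PTPRC had 1 count in Liq replicate 2 and 0 in the other libraries. Of the 8, 6 had at most 10 counts in every library. The exceptions were CD68 and CDH5, at 71.0 ± 4.5 and 51.8 ± 1.6 CPM in vehicle and 71.9 ± 7.8 and 46.4 ± 2.5 CPM with Liq. The part of other cell types in the results was not tested. ESR2, the gene of ERβ, had 4 and 7 counts in vehicle and 5 and 14 in Liq and did not pass the filter on low counts, and ESR1 was at 0.495 ± 0.057 and 0.606 ± 0.101 CPM.

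Some but not all tested ALDH genes, in the set and outside it, differed between Liq and vehicle, and only ALDH3B1 by at least 1.5-fold. Promoters of 3 of them, all in the set, are shown because they hold both directions, ALDH1A3 lower and ALDH3A2 and ALDH3B1 higher with Liq. Each is the stretch of 250 bases before the RefSeq transcription start, taken from the table of GRCh38.p14 promoters and matched exactly to GRCh37, and read 5′ to 3′ on the gene's strand. ALDH1A3 lies at chr15:101419786-101420035, ALDH3A2 at chr17:19551199-19551448 and ALDH3B1 at chr11:67775767-67776016, all on the plus strand, and 18 bases of the first lie in an exon of another ALDH1A3 transcript. Capitals mark GCGTG on either strand, the core of the dioxin response element bound by the aryl hydrocarbon receptor (AHR).
ALDH1A3: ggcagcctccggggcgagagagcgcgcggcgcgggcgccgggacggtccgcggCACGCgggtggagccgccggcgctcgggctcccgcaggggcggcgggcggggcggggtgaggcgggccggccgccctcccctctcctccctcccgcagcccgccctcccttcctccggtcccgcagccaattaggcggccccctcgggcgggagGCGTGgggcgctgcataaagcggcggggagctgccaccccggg
ALDH3A2: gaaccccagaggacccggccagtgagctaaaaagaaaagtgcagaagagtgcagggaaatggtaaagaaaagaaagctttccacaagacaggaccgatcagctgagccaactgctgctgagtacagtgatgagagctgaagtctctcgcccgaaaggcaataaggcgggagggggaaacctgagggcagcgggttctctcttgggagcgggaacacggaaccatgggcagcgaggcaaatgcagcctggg
ALDH3B1: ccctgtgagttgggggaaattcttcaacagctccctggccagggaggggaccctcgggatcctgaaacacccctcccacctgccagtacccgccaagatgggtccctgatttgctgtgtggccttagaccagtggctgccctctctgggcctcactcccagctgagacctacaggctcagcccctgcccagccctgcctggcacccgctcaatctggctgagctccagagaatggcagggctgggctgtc
The ALDH1A3 stretch held the core on both strands, CACGC from position -197 to -193 and GCGTG from -43 to -39 relative to the start, and it had a GC content of 82.4%, against 55.6% for ALDH3A2 and 63.6% for ALDH3B1. In the ALDH3A2 and ALDH3B1 windows the core had no match. PROM1, also higher with Liq, held the core just after its start, from position 7 to 11. The 3 genes shown were picked on their direction of change, so nothing is read from which of them hold the core.

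RefSeq promoters of 300 bases, 250 before and 50 after the start, were matched for 8 of the 10 genes by symbol, with ALDH2 and ALDH3A1 not matched. Part or all of some windows lies in exons of other transcripts of the same gene. Of the 250 bases before the start, this held for 250 in PROM1, 212 in ALDH1A2, 143 in ALDH7A1 and 3 in ALDH1A1. The dioxin response element core was found on either strand in 3 of the 8, ALDH1A2, ALDH1A3 and PROM1, and in 36.5% of all 35116 promoters of that length. The antioxidant response element core TGACNNNGC, read by NRF2 with small MAF proteins, was found in 0 of the 8 and in 13.3% of all promoters. The palindromic estrogen response element, GGTCA and its complement facing each other with 3 bases between them, was found in 0 of the 8 and in 0.057% of all, and TATAAA in 0 of the 8 and in 11.5% of all. A missing match says only that these letters are not in this window.

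ALDH1A3 was the dominant ALDH gene of ES2 cells. It lies on chromosome 15 from 101417919 to 101456831 (GRCh37, GENCODE annotation, plus strand) and had 41436 and 37605 counts with vehicle and 28062 and 40830 with Liq. After scaling for library size these were 1008 and 1004.5 CPM in vehicle and 789 and 814 CPM with Liq. Both Liq samples lay below both vehicle samples, by more than the spread within either group. In bulk RNA, fewer cells with the transcript and less transcript per cell cannot be told apart. The means were 1006 ± 2 and 801 ± 17 CPM (SD, n = 2), with a log2 fold change of -0.33 (SE 0.06). This is a level 1.26 times higher in vehicle, and the change stayed under the 1.5-fold threshold of the study in all 11 alternative fits, which gave -0.35 to -0.23. Of the 100-base words of its longest transcript, 37.5% also occur, as the complement, in the antisense RNA gene ALDH1A3-AS1, which the count tables do not list. Whether the counting used strand is not given in the sources used here, so the reads of both genes cannot be told apart there.

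The other 2 genes for retinaldehyde dehydrogenases were close to silent. ALDH1A1 (chromosome 9 from 75515587 to 75695358, minus strand), the isoenzyme most often used as a stem-like marker, had 0 counts in both vehicle samples and 1 and 4 counts in the Liq samples. Over the group, 0 counts allow up to 3, or 0.0382 CPM, beside a Liq level of 0.0583 CPM. The exact 95% interval of the ratio of summed counts, Liq over vehicle, began at 0.839 and had no upper limit, so no difference was detectable at this depth, and every single library was at or below 0.0797 CPM. ALDH1A2 (chromosome 15 from 58245622 to 58790065) had 2 and 5 counts in vehicle and 4 and 4 with Liq. The ALDH1A2 groups overlapped, and the ratio of summed counts, Liq over vehicle, was 1.05 with an exact 95% interval from 0.332 to 3.39. The retinaldehyde dehydrogenase transcripts of these cells were thus almost all from ALDH1A3, in vehicle and in Liq.

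Of the mitochondrial acetaldehyde enzymes, ALDH1B1 was expressed and differed between the groups by less than its SE, and ALDH2 had almost no reads. ALDH1B1 (chromosome 9 from 38392699 to 38398658, plus strand) had 47.0 and 45.8 CPM in vehicle and 47.8 and 47.4 CPM with Liq. The Liq samples lay just above the vehicle samples, by less than the SE of the fit, with a log2 fold change of 0.04 (SE 0.08). ALDH2 (chromosome 12 from 112204691 to 112255336), the main acetaldehyde-clearing enzyme of liver, had 0 and 5 counts in vehicle and 2 and 1 with Liq. Its groups overlapped, and the ratio of summed counts was 0.550 with an exact 95% interval from 0.0854 to 2.83, so no change was detectable at this depth. ALDH7A1 (chromosome 5 from 125866892 to 125931054, minus strand) also had overlapping groups, with 66.4 and 67.0 CPM in vehicle and 65.0 and 67.4 CPM with Liq. Its log2 fold change was -0.01 (SE 0.08), a value that turned positive under 3 of the 11 alternative fits. Its pseudogene ALDH7A1P1 shares 1.37% of the 100-base words of its longest transcript.

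ALDH3B1 and ALDH3A2, the fatty aldehyde enzymes, had higher levels with Liq. ALDH3B1 (chromosome 11 from 67776048 to 67796749, plus strand) had 359 and 313 counts in vehicle and 634 and 816 with Liq, or 8.73 and 8.36 against 17.8 and 16.3 CPM. Both Liq samples were far above both vehicle samples, and the mean rose from 8.55 ± 0.26 to 17.0 ± 1.1 CPM (SD, n = 2). The log2 fold change was 0.99 (SE 0.11), or 1.99-fold, and it ranged from 0.93 to 1.06 over the 11 alternative fits. ALDH3A2 (chromosome 17 from 19551449 to 19589073, plus strand), the fatty aldehyde dehydrogenase that is defective in Sjögren-Larsson syndrome, had 29.4 and 31.1 CPM in vehicle and 40.5 and 43.2 CPM with Liq. Its groups did not overlap either, and the log2 fold change was 0.47 (SE 0.09), a 1.39-fold difference that stayed under 1.5-fold in all 11 alternative fits. ALDH3A1 (chromosome 17 from 19641297 to 19652256, minus strand), its neighbour on chromosome 17, had 0, 0, 0 and 1 counts, so its level could not be compared.

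PROM1 (chromosome 4 from 15964699 to 16086001, minus strand) was scarce in both groups. It had 2 and 3 counts in vehicle and 15 in each Liq sample, or 0.0486 and 0.0801 against 0.422 and 0.299 CPM. Both Liq samples were above both vehicle samples, and the log2 fold change was 2.41 (SE 0.64). The ratio of summed counts was 5.50, with an exact 95% interval from 2.11 to 18.1. This interval covers counting error only and leaves out the spread between replicates. PROM1 was picked with this contrast known, so the interval is a description and not a test. PROM1 passed the filter on low counts only through the Liq group. Its change did not pass the adjusted threshold in DESeq2 (log2 fold change 2.48, SE 1.07) or when vehicle replicate 1 (2.09, SE 0.91) or vehicle replicate 2 (2.78, SE 1.00) was left out.

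**Figure D1:**
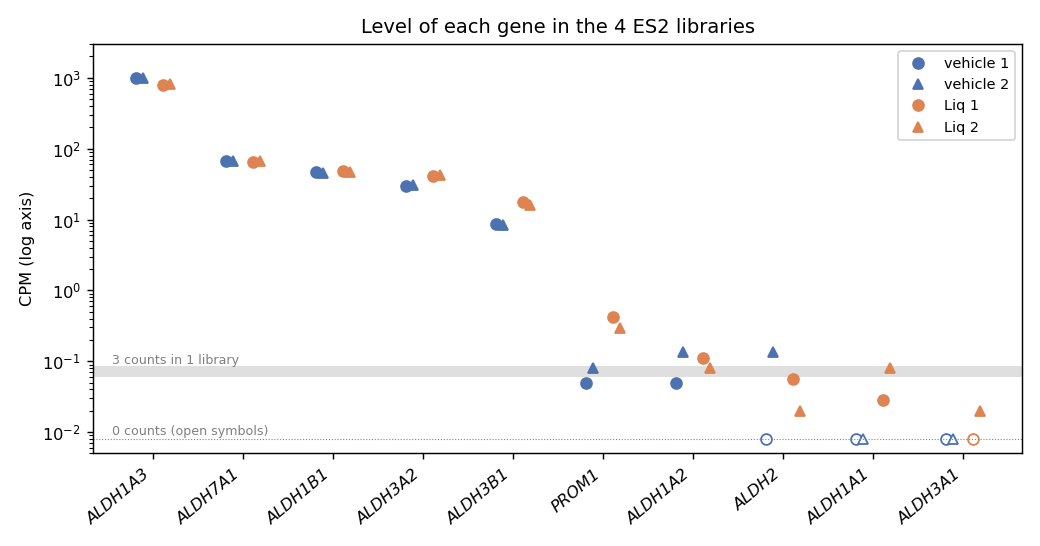
Level of each of the 10 genes in CPM (log axis) in the 4 ES2 libraries, with blue symbols for vehicle, orange for Liq, circles for replicate 1 and triangles for replicate 2. Open symbols stand for 0 counts, and the grey band is the level of 3 counts in 1 library (0.0598 to 0.0844 CPM). ALDH1A3 lies highest, between 789 and 1008 CPM, 4 further ALDH genes lie between 8.36 and 67.4 CPM, and PROM1 and 4 ALDH genes lie below 0.5 CPM.

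In the test across all genes, 6 of the 10 passed the filter on low counts (ALDH1A3, ALDH1B1, ALDH3A2, ALDH3B1, ALDH7A1 and PROM1) and the other 4 were not tested. Of the 6, 2 were called higher with Liq, ALDH3B1 and PROM1, and 0 were called lower, where a call needs a 1.5-fold difference and a Benjamini-Hochberg adjusted p-value below 0.05 in the quasi-likelihood test of edgeR. By the same rule 6.45% of the 13546 tested genes were called, 4.29% higher and 2.16% lower. With loess offsets along the expression level the split moved to 351 higher of 747 called genes, from 581 of 874. Of the 1321 tested genes with a mean under 1 CPM, where PROM1 lies, 10.4% were higher by the rule and 3.63% were lower. The count of 0 lower members was also 0 at an unadjusted p-value under 0.05 with the 1.5-fold threshold and in DESeq2. Without the fold threshold, ALDH3A2 joined the higher genes and ALDH1A3 was lower, against 12.6% and 11.3% of all tested genes. The groups did not overlap in 5 of the 6, as in 61.7% of all tested genes. The median log2 fold change of the 6 was 0.25, beside 0.01 over all tested genes. Since the genes were picked with this contrast known, nothing is read from these shares.

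**Figure D2:**
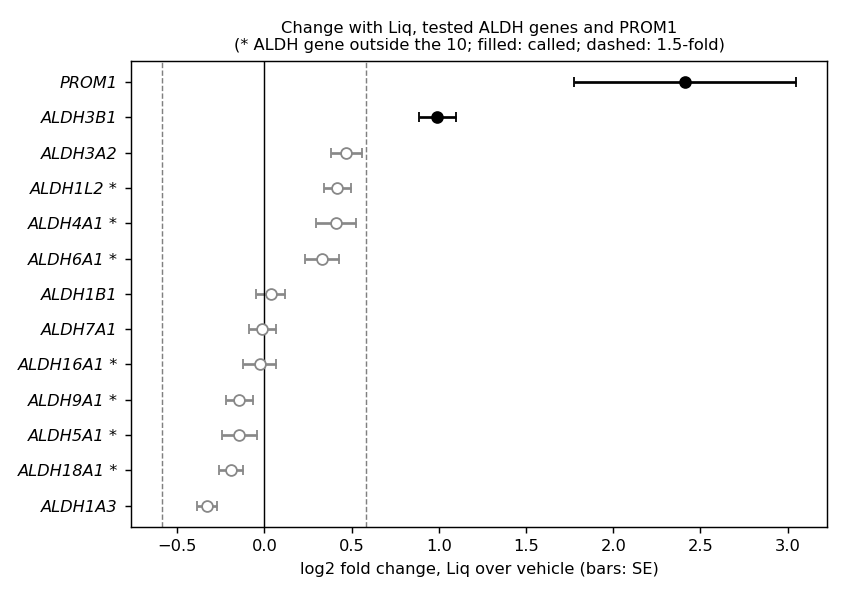
Log2 fold change of Liq over vehicle with its SE for the 6 tested genes of the set and, marked with an asterisk, the 7 tested ALDH genes outside it. Filled points were called at 1.5-fold (dashed lines) and an adjusted p-value below 0.05, which holds for PROM1 (2.41) and ALDH3B1 (0.99), while ALDH1A3 (-0.33) is the lowest.

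Levels of different genes were compared per kilobase of exon, which no fold change enters. Per kilobase of the union of exons, the vehicle means in order were 189 CPM for ALDH1A3, 14.9 for ALDH1B1, 3.72 for ALDH7A1, 1.97 for ALDH3A2 and 1.29 for ALDH3B1 (n = 2). No neighbours among these 5 overlapped between the 2 vehicle samples. In the Liq samples the order was kept, but ALDH3A2 (2.64 and 2.82 CPM per kilobase) and ALDH3B1 (2.69 and 2.46) overlapped. ALDH1A2, PROM1, ALDH2, ALDH1A1 and ALDH3A1 followed at 0.0164 CPM per kilobase or less in every vehicle sample, and their order cannot be told within the spread. The gap between ALDH1B1 and ALDH7A1 depended on the length used. With the length of the longest transcript in place of the union of exons, the means were 15.3 for ALDH1B1 and 14.0 for ALDH7A1, and those of ALDH1A3, ALDH3A2 and ALDH3B1 were 290, 5.95 and 1.45 CPM per kilobase.

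Within the 19 human ALDH genes of the count tables, ALDH1A3 took the largest share in both groups. Summed over the family, levels were 1589.9 ± 5.8 CPM in vehicle and 1394 ± 23 CPM with Liq (SD, n = 2), of which ALDH1A3 held 63.3 ± 0.1% and 57.5 ± 0.3%. Per kilobase of exon its share was 59.3 ± 0.2% in vehicle and 54.6 ± 0.3% with Liq, a shift larger than the spread between samples. ALDH18A1, a proline synthesis enzyme outside the set, was next with 18.2 ± 0.2% and 18.4 ± 0.3%. ALDH3B1 moved from 0.406 ± 0.010% to 0.936 ± 0.077% of the family level per kilobase, and ALDH3A2 from 0.620 ± 0.029% to 0.991 ± 0.028%, so both remained minor parts of the family transcripts. The shares depended on the length used. With the longest transcript they were 1.31 ± 0.06% and 2.11 ± 0.06% for ALDH3A2, 0.321 ± 0.008% and 0.743 ± 0.062% for ALDH3B1, and 64.0 ± 0.1% and 59.2 ± 0.2% for ALDH1A3.

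**Figure D3:**
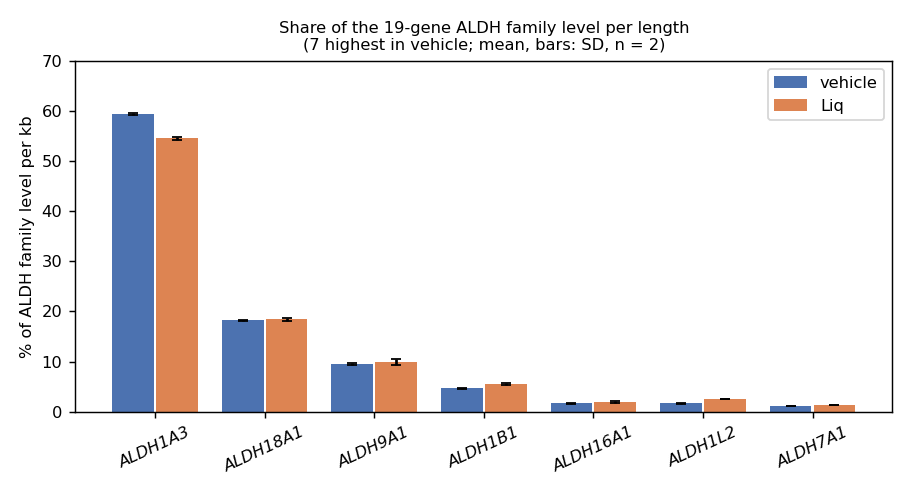
Share of the summed level per kilobase of the 19 ALDH genes, in percent, for the 7 genes with the highest vehicle level (bars: mean; error bars: SD, n = 2). ALDH1A3 holds 59.3% in vehicle (blue) and 54.6% with Liq (orange), ahead of ALDH18A1, ALDH9A1 and ALDH1B1.

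The remaining 10 ALDH genes were compared next. Of these, 7 were tested, 0 changed by at least 1.5-fold in either direction (edgeR; 0 also at an unadjusted p-value and in DESeq2), and their median log2 fold change was -0.03 beside 0.01 over all tested genes. The highest CPM were those of ALDH18A1, with 218 ± 3 CPM in vehicle and 190.6 ± 0.07 CPM with Liq, and ALDH9A1, an enzyme of carnitine synthesis, with 91.2 ± 1.4 and 82.6 ± 6.2 CPM. ALDH18A1 was lower by 0.19 on the log2 scale (SE 0.07, edgeR adjusted p = 0.040443). The mitochondrial folate enzyme ALDH1L2 was at 49.9 ± 1.8 CPM in vehicle and 66.7 ± 0.002 CPM with Liq, a log2 fold change of 0.42 (SE 0.08, edgeR adjusted p = 0.00034597). ALDH4A1, which degrades a proline intermediate, and ALDH6A1, of valine breakdown, had log2 fold changes of 0.41 and 0.33 (edgeR adjusted p = 0.010173 and 0.013936). ALDH3B2, the close relative of ALDH3B1, had 0 counts in all 4 libraries, and ALDH1L1 and ALDH8A1 had 1 to 9 counts per library and were not tested.

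Genes that bring, make, break down or bind retinoids were examined because ALDH1A3 makes retinoic acid. Of 24, 15 were tested, 1 rose and 0 fell by at least 1.5-fold (edgeR; 0 lower genes also at an unadjusted p-value and in DESeq2), with a median log2 fold change of 0.06. Over all tested genes 4.29% were called higher and 2.16% lower, so a count of 1 in 15 is near the background. The gene that rose was DHRS3, a reductase that turns retinaldehyde back into retinol, from 5.89 ± 0.10 to 10.7 ± 0.1 CPM (SD, n = 2), with a log2 fold change of 0.86 (SE 0.12, edgeR adjusted p = 6.036e-06). The retinoic acid receptor genes did not move together. RARB was at 22.4 ± 0.4 CPM in vehicle and 31.1 ± 2.1 CPM with Liq, and RARA at 34.4 ± 1.1 and 26.8 ± 1.6 CPM, with log2 fold changes of 0.47 and -0.36 (edgeR adjusted p = 0.00053442 and 0.0047361), both under 1.5-fold. RDH11, a retinal reductase, had the highest CPM of the list, at 156 ± 2 and 183 ± 4 CPM (log2 fold change 0.24, edgeR adjusted p = 0.015442), followed by the receptor RXRB at 92.4 ± 2.5 and 93.6 ± 6.1 CPM. CYP26A1, CYP26B1 and CYP26C1, the enzymes that break down retinoic acid, had 0 or 1 counts in every library, and CRABP1, a cellular retinoic acid binding protein gene, was at 0 in all 4.

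Among 15 alcohol dehydrogenases and other carbonyl-clearing enzymes, 7 were tested, 1 fell and 0 rose by at least 1.5-fold (edgeR; 0 higher genes also at an unadjusted p-value and in DESeq2), beside 2.16% lower and 4.29% higher over all tested genes. AOX1, an aldehyde oxidase that can also oxidise retinaldehyde, fell from 424 ± 9 to 261 ± 7 CPM (SD, n = 2), with a log2 fold change of -0.70 (SE 0.07, edgeR adjusted p = 9.3717e-09). The aldose reductase AKR1B1 was at 127 ± 9 and 143 ± 3 CPM and the aldehyde reductase AKR1A1 at 82.5 ± 4.0 and 91.9 ± 4.7 CPM, neither past the threshold (edgeR adjusted p = 0.093112 and 0.15254). ADH5, the formaldehyde-clearing alcohol dehydrogenase, was at 76.4 ± 0.7 and 69.1 ± 2.2 CPM, and the other 6 ADH genes had 0 to 2 counts per library.

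Of 20 other genes used as markers of stem-like cells, 15 were tested, 1 rose and 0 fell by at least 1.5-fold (edgeR; 0 lower genes also at an unadjusted p-value and in DESeq2), with a median log2 fold change of -0.0030. This count is also near the background of 4.29% higher and 2.16% lower. The gene that rose was KIT, a receptor tyrosine kinase, with 16 and 11 counts in vehicle and 32 and 37 with Liq and a log2 fold change of 1.23 (SE 0.35, edgeR adjusted p = 0.012575). KIT did not pass in DESeq2 or without vehicle replicate 1, vehicle replicate 2 or Liq replicate 1. CD44, the hyaluronan receptor, had the highest CPM of the markers, at 1165 ± 23 CPM in vehicle and 1259.7 ± 1.3 CPM with Liq (log2 fold change 0.11, edgeR adjusted p = 0.16026). The integrin gene ITGA6 followed, at 636 ± 20 and 529 ± 42 CPM (log2 fold change -0.26, edgeR adjusted p = 0.0043739). NANOG, POU5F1, LIN28A and MSI1 had 0 counts in all libraries. PROM2, the only relative of PROM1 in the list, was at 1.51 ± 0.03 and 1.22 ± 0.02 CPM (log2 fold change -0.31, SE 0.23, edgeR adjusted p = 0.35692), with both Liq samples below both vehicle samples.

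ALDH3A1 is a textbook target of AHR, and several ALDH genes are listed among NRF2 targets, so both groups were examined beside them. Of 7 AHR battery genes, 4 were tested, 3 fell and 1 rose (median log2 fold change -0.91, beside 0.01 over all tested genes), where 2.16% of all tested genes were called lower and 4.29% higher. The AHR and NRF2 lists were chosen with results of this comparison known, so nothing is read from how many of their genes were called. AHRR, the AHR repressor, fell from 38.7 ± 3.1 to 17.3 ± 1.7 CPM and TIPARP from 69.2 ± 2.5 to 43.6 ± 2.0 CPM (SD, n = 2), with log2 fold changes of -1.16 and -0.67 (edgeR adjusted p = 1.3928e-09 and 8.8543e-07). CYP1B1 had 33 and 29 counts in vehicle and 12 and 17 with Liq, a log2 fold change of -1.22 (edgeR adjusted p = 0.012235), which did not pass in DESeq2 or without vehicle replicate 1, vehicle replicate 2 or Liq replicate 2. NQO1, which belongs to both groups, rose by 0.68 on the log2 scale (SE 0.07, edgeR adjusted p = 1.1437e-07), and was not called without Liq replicate 2. Of 8 NRF2 core targets, all tested, 6 rose (NQO1, GCLM, HMOX1, ME1, OSGIN1 and PIR) and 0 fell (edgeR; 0 also at an unadjusted p-value and in DESeq2; median log2 fold change 0.81), beside the same 4.29% and 2.16%. With loess offsets 6 rose as well. In the fit without offsets the log2 fold changes ran from 0.18 for SRXN1 to 1.51 for PIR.

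**Figure D4:**
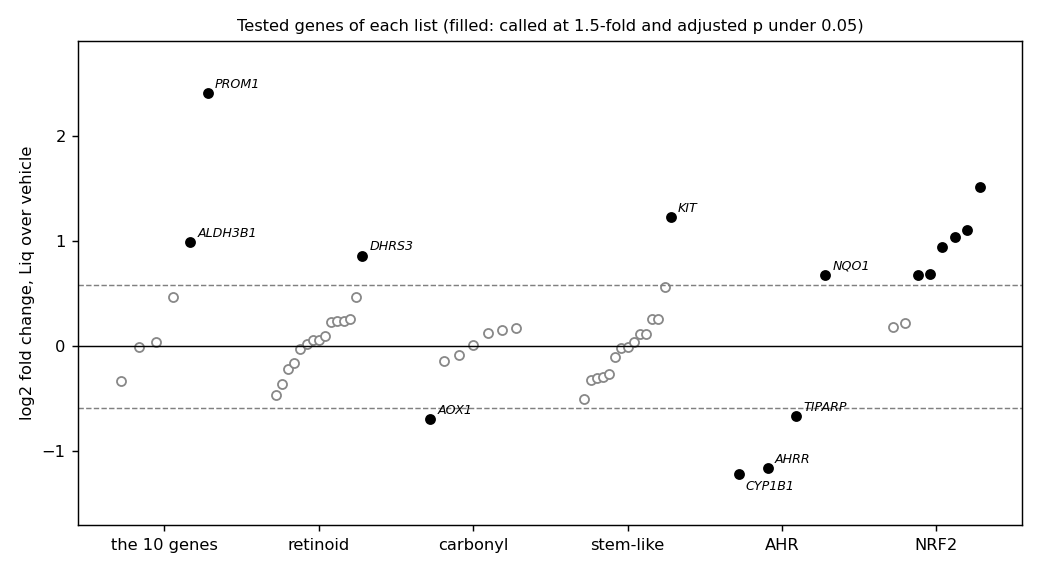
Log2 fold change of Liq over vehicle for each tested gene of the set of 10 and of the lists of retinoid, carbonyl-clearing, stem-like, AHR and NRF2 genes (1 point per gene). Filled points were called at 1.5-fold (dashed lines) and an adjusted p-value under 0.05: ALDH3B1 and PROM1 in the set, DHRS3, AOX1 and KIT in the first 3 lists, 3 lower and 1 higher AHR genes and 6 higher NRF2 genes.

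PROM1 was the called member with the largest rise, and no member was called lower, so the genes with the most similar pattern were sought for PROM1 alone. Likeness was the distance between log2 CPM profiles, centred on their mean over the 4 samples. The closest tested genes were PART1 (distance 0.160), RHPN1 (0.201) and SCARNA17 (0.222). PART1, a long noncoding RNA, had 12 and 13 counts in vehicle and 53 and 59 with Liq, RHPN1 had 12 and 18 against 56 and 60, and SCARNA17, a small Cajal body RNA, had 4 in each vehicle sample and 21 in each Liq sample. With 4 samples in 2 groups, likeness mainly means a similar difference between the groups.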

How the data were processed

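Libraries made with the TruSeq RNA kit from 4 ES2 samples were sequenced on an Illumina HiSeq with single-end reads. Per the labels, the authors processed the reads with bcl2fastq 2.17.1.14, TopHat2 2.0.8b on hg19 (GRCh37) and HTSeq, and deposited raw counts per gene symbol, without normalization. Reads aligned to several places (35.6% to 36.2% of those tallied), to no gene (7.75% to 9.16%) or to several genes (0.544% to 0.557%) are tallied in rows that name no gene and were left out.

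Groups and replicate numbers came from the sample labels. Counts were fitted with edgeR 4.0.16 (R 4.3.3). The filter filterByExpr (minimum count 10, minimum total 15) left 13546 genes, which were scaled by TMM and compared by the quasi-likelihood test with Benjamini-Hochberg adjustment over all of them. The SE is the size of the log2 fold change divided by the square root of F. With 2 samples against 2, an exact permutation test cannot go below p = 0.3333. Replicates differed by more than sampling noise (chi-square per degree of freedom 6.33 and 11.1, against 58.4 to 71.4 between groups). Tested on simulated counts of the comparison of Liq with vehicle with 200 changed genes among 13459, edgeR recovered 197 and DESeq2 1.42.0 recovered 192. False calls were 3 in edgeR and 0 in DESeq2. The changed genes had means above 1 CPM and changes of at least 2-fold. Recovery of scarcer genes, such as PROM1, KIT and CYP1B1, and of smaller changes was not tested.

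Gene lengths and positions came from GENCODE v44 lifted to GRCh37. The 10 genes and the gene lists were chosen with earlier results of these data known. Named were all 10 genes, and of each list the called genes or, where under 3, the most abundant up to 3; further list genes were named after their values were seen. Some genes of the lists are not reported here. The alternatives were other size factors, filters, thresholds, DESeq2, a replicate block, loess offsets (span 0.3), each sample left out, and another gene length. The study used DESeq with 1.5-fold and p under 0.05, without saying whether p was adjusted.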

Additional observations from a re-analysis of the deposited data

How the results depend on the processing

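Of the 10 genes, 2 were called higher and 0 lower. Called higher was 1 gene with at least 10 counts in every sample, where PROM1 was filtered out, 1 in DESeq2, 1 at a fold change of at least 2 (PROM1), and 1 to 2 when each sample was left out in turn; without a fold threshold 1 was called lower. For the other ALDH genes, the counts without a fold threshold were 3 higher and 1 lower, and leaving out samples gave 0 to 1 higher (ALDH4A1 without vehicle replicate 1). For retinoid genes they were 5 higher and 1 lower without a fold threshold and 0 higher at 2-fold. For carbonyl-clearing genes, 0 were lower at 2-fold, and leaving out samples gave 0 to 1 higher (CYP2E1 without Liq replicate 1). For stem-like markers the number higher was 2 with upper-quartile scaling (KIT and THY1), 0 in DESeq2, 2 without a fold threshold and 0 to 2 when each sample was left out; the number lower was 1 with loess offsets (KLF4) and 3 without a fold threshold. The log2 fold change of ALDH7A1 turned from -0.0106 to 0.0168 with upper-quartile scaling, 0.0193 with loess offsets and -0.0381 to 0.0140 when samples were left out. For the AHR, NRF2, and epithelial and ovarian lists the alternatives were added after seeing the data. Of AHR genes, 0 were higher at 2-fold and 0 to 1 when each sample was left out (NQO1 was not called without Liq replicate 2). Of NRF2 targets, 3 were higher at 2-fold. Of epithelial and ovarian markers, the number higher was 1 with loess offsets (KRT7), 1 without a fold threshold and 0 to 1 when each sample was left out, and the number lower was 1 at 2-fold (PAX8) and 1 to 2 when each sample was left out (WT1 was not called without vehicle replicate 2). The causes were not tested. Over all genes, DESeq2 called 566 against 874.

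Under a replicate block, in a fit that pairs samples by number, the members called were again 2 higher and 0 lower, and the counts for the 7 other lists with such a fit (other ALDH, retinoid, carbonyl-clearing, stem-like, AHR, NRF2, and epithelial and ovarian genes) did not change either. The labels do not say that a number marks a shared culture, and deviations of same-numbered samples had a correlation of 0.0483 across genes. Depth limits ALDH1A1, ALDH1A2, ALDH2, ALDH3A1 and PROM1, which had at most 15 counts in any library.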

Other observations

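Among genes of the same lists that did not pass the filter on low counts, several had groups that did not overlap. Among all tested genes this held for 61.7%, and the share among genes that did not pass was not computed. ALDH1A1, AKR1B10, PECAM1, VWF, HBB and ALB were such genes, and LRAT, CYP2E1 and CYP1A1 are described here. LRAT, which stores retinol as esters, had 0 counts in both vehicle samples and 3 in each Liq sample. CYP2E1, an ethanol-oxidising cytochrome P450, had 4 and 2 counts in vehicle and 7 and 18 with Liq. CYP1A1, the best-known AHR target, had 6 and 2 counts in vehicle and 1 in each Liq sample. LRAT, CYP2E1 and CYP1A1 were singled out after their values were seen, and nothing is read from so few counts. LRAT and CYP1A1 were tested only in the fit with no filter on low counts and were not called there. The other fits could not call LRAT or CYP1A1. CYP2E1 was not called in the fit with no filter either, and its call without Liq replicate 1 is given above.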
